A study of Mus musculus with 9 samples.

Results

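Dendritic cells present antigen to T cells together with surface ligands that raise or restrain the T cell response. The ligand genes described here are 9: Cd80, Cd86, Icosl, Cd274 and Pdcd1lg2 of the B7 family, Tnfsf4 and Tnfsf9 of the TNF superfamily, and Cd40 and Cd83. They were taken by symbol, and each had exactly 1 row among the 38887 rows of the count table. All 9 were among the 14363 genes that passed the filter on low counts.

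CD80 and CD86 bind CD28 on T cells and deliver the main co-stimulatory signal, and they also bind the inhibitory receptor CTLA-4. ICOSL, OX40L (the product of Tnfsf4) and 4-1BBL (the product of Tnfsf9) sustain T cells that are already activated, while PD-L1 (Cd274) and PD-L2 (Pdcd1lg2) engage the inhibitory receptor PD-1. CD40 receives the signal of CD40 ligand on helper T cells and acts through NF-κB, and CD83 stabilises CD86 and MHC class II at the surface of mature dendritic cells.

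The RNA came from mouse bone marrow-derived dendritic cells, which are grown in culture from marrow precursors. Untreated cells were compared with cells given lysophosphatidic acid (LPA), a signalling phospholipid with its own G protein-coupled receptors, and the exposure lasted 2 h or 6 h. There were 3 libraries in each of the 3 groups. The labels name no dose, vehicle, mouse strain or sex, and no time for the untreated cells, and they do not say whether replicates were separate cultures or animals. The p-values therefore cover only the spread among these libraries, which may be technical.

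Library totals ran from 29628817 to 84596899 estimated counts, so 1 count was worth 0.0118 to 0.0329 CPM (counts scaled to a common library size). Of 13 dendritic cell markers 12 passed the filter, and Cd209a was below 1 CPM in every library. As means of untreated, 2 h and 6 h libraries, Itgax was at 1361, 1318 and 1072 CPM and Cd74 at 3597, 3645 and 3252 CPM. Some others were low, with untreated means of 13.3 CPM for Flt3, 18.0 for Zbtb46, 2.38 for Itgae and 1.95 for Xcr1. At 6 h 1 of the 12 tested markers was called higher and 5 lower (median log2 fold change -0.21). Over all tested genes 26.4% were called higher and 25.7% lower at 6 h. All 10 macrophage markers were also expressed. Their summed level was 3934 to 3984 CPM untreated, 4188 to 4289 CPM at 2 h and 4159 to 4373 CPM at 6 h, a sum carried mostly by Csf1r (2251, 2523 and 2629 CPM as group means). At 6 h 3 of the 10 were called higher (Csf1r, Cd68 and Mertk) and 6 lower (median log2 fold change -0.29), among the latter Fcgr1, Mrc1, Adgre1 and C1qa. The summed dendritic cell markers were 6625 to 7500, 6520 to 7123 and 6020 to 6449 CPM. That sum was carried mostly by Cd74, Itgax, Sirpa and H2-Ab1 (the last 2 at 920.4 and 767.5 CPM untreated). In such bulk RNA, fewer cells of a type and less RNA per cell cannot be told apart, and the part of these shifts in the results on the ligand genes was not tested. T cell markers were below 1 CPM in every library for 8 of 9 genes, with Cd3g at 0.

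After 2 h of LPA, Cd80, Cd86 and Cd83 were each about 1.5- to 1.7-fold higher and Icosl was 0.643 times its untreated level. The other 5 ligand genes did not pass the test. The count of 4 genes called, of 9, stands against 38.5% of all tested genes called at 2 h (adjusted p under 0.05), and the count is near that background. The groups did not overlap for these 4 genes, 3 of them higher and 1 lower, as was so for 48.2% of all tested genes (24.3% higher and 24% lower). Called higher were 19.3% of all tested genes, and 19.2% were called lower. Of the 9 genes 0 were called with at least a 2-fold change, as 4.33% of tested genes were.

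After 6 h, 7 of the 9 genes were called, against a background of 52% of tested genes. Cd80, Cd86, Cd83 and Tnfsf9 were higher (26.4% of all tested genes were called higher). Icosl, Tnfsf4 and Pdcd1lg2 were lower (25.7% were called lower). Tnfsf4, at 0.329 times its untreated level, was the only one of the 9 to pass a 2-fold change, which 7.94% of tested genes did. In all 7 the groups did not overlap, as in 63% of tested genes (32% higher and 31% lower). Between 6 h and 2 h, 4 of 9 genes were called, where 48.7% of tested genes were called: Cd83, Tnfsf4 and Pdcd1lg2 were lower at 6 h and Tnfsf9 was higher. Without 2 h replicate 3 or without 6 h replicate 3 the count was 2. In the same comparison 24.3% of tested genes were called higher, 24.4% lower, and 4.57% with at least a 2-fold change, among them Tnfsf4. All libraries at 6 h were below all at 2 h for Cd83, Tnfsf4, Pdcd1lg2 and Icosl, while 58.9% of tested genes did not overlap (29.2% higher and 29.7% lower). The median log2 fold change of the 9 genes was -0.03 at 2 h and 0.03 at 6 h, beside -0.001 and 0.007 over all tested genes. Both comparisons with untreated cells use the same 3 untreated libraries.

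**Figure D1:**
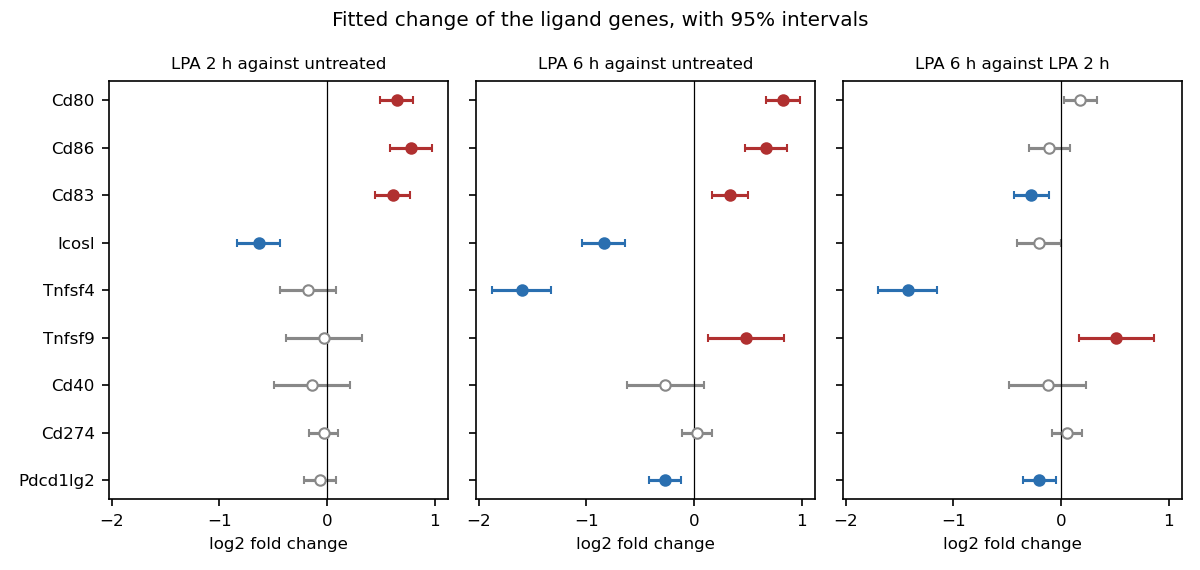
Fitted log2 fold change (x axis) of the 9 ligand genes in the 3 comparisons, with 95% intervals from the quasi-likelihood fit. Filled red points were called higher, filled blue points lower, and open grey points were not called. The interval of Tnfsf4 at 6 h, -1.88 to -1.33, lies apart from those of the other 8 genes.

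Levels are compared between genes as CPM per kilobase of exon. Cd274 stood highest in every group, at 107 ± 2.33 untreated, 105 ± 10.8 at 2 h and 109 ± 1.78 at 6 h (CPM per kb, mean ± SD, n = 3 each, as for all values with ± below unless stated). In untreated cells it was followed by Tnfsf4 (32.3 ± 2.03), Cd83 (25.3 ± 1.49), Pdcd1lg2 (19.4 ± 1.16), Cd86 (7.77 ± 0.954) and Cd80 (5.70 ± 0.0930). Cd40 (4.04 ± 0.728) and Icosl (3.62 ± 0.149) had overlapping libraries and were not separable, and Tnfsf9 was lowest at 1.44 ± 0.107.

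The order of these per-length levels changed with LPA. At 2 h Cd83 (38.5 ± 3.59) stood above Tnfsf4 (28.7 ± 5.49), with no overlap between any neighbours. At 6 h Tnfsf4 (10.7 ± 0.520) stood in the fifth place, with libraries overlapping those of Cd80 (10.1 ± 0.591), and the libraries of Icosl (2.01 ± 0.221) and Tnfsf9 (1.98 ± 0.331) overlapped at the bottom. The place of Cd86 depends on the length used: with its longest transcript of 2539 bases in place of all exons (3661 bases), its mean at 6 h was 17.8 instead of 12.4 CPM per kb and lay above Pdcd1lg2 (16.04), and the same exchange held at 2 h.

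**Figure D2:**
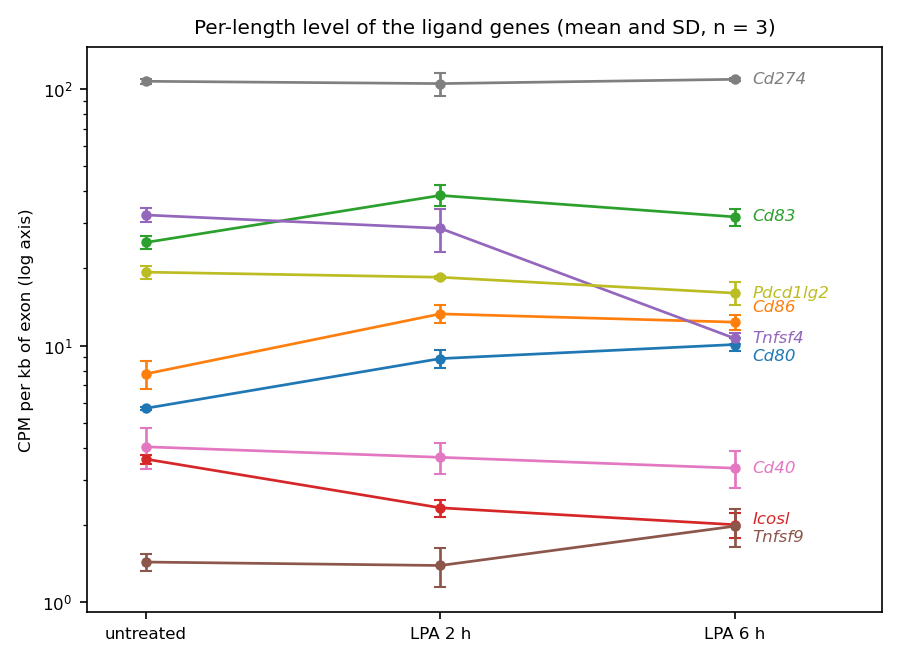
Per-length level of each ligand gene (CPM per kb of exon, log axis) in untreated cells and after 2 h and 6 h of LPA. Points are means and bars are SD of 3 libraries. Cd274 lies at 105 to 109 CPM per kb while the line of Tnfsf4 falls from 32.3 to 10.7 between untreated cells and 6 h.

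Cd80 (chromosome 16, 38455561 to 38496335, plus strand, mm10) measured 9.86, 9.54 and 9.71 CPM in untreated replicates 1, 2 and 3. It measured 16.3, 15.2 and 13.9 CPM at 2 h, and 18.3, 17.1 and 16.3 CPM at 6 h. All 6 treated libraries lay above all 3 untreated ones, and the untreated libraries differed by little. The log2 fold change was 0.65 ± 0.07 (SE) at 2 h (adjusted p = 2.3e-05) and 0.82 ± 0.07 at 6 h (adjusted p = 2.17e-06). The further difference between 6 h and 2 h was 0.18 ± 0.07 and missed the threshold (adjusted p = 0.0539). It passed under 3 of 17 alternatives, among them total-count scaling (adjusted p = 0.02) and leaving out 2 h replicate 1 (0.0295), over a range of 0.02 to 0.195.

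Cd86 (chromosome 16, 36603869 to 36666081, minus strand), the partner of CD80 on CD28, measured 32.2, 27.7 and 25.4 CPM untreated. It measured 51.8, 50.1 and 44.3 CPM at 2 h and 48.2, 45.3 and 42.3 CPM at 6 h. Again every treated library was above every untreated one. Replicate 1 was the highest and replicate 3 the lowest in each group. The log2 fold change was 0.78 ± 0.09 at 2 h (adjusted p = 4.22e-05) and 0.67 ± 0.09 at 6 h (adjusted p = 8.26e-05). Between the times it was -0.11 ± 0.09, with a 95% interval of -0.30 to 0.08 (adjusted p = 0.32).

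The ratio of Cd80 to Cd86, taken within each library on the per-length scale, was 0.654 to 0.679 in the 2 h libraries and 0.810 to 0.828 in the 6 h libraries. The untreated libraries were at 0.658, 0.742 and 0.824. The treated groups did not overlap with each other, and each overlapped the untreated range.

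Cd83 (chromosome 13, 43784775 to 43803132, plus strand) measured 58.4, 65.5 and 63.7 CPM untreated, 86.9, 94.8 and 104.6 CPM at 2 h and 73.2, 85.3 and 77.7 CPM at 6 h. The 6 h libraries lay between the other 2 groups without overlap. Its log2 fold change was 0.61 ± 0.08 at 2 h (adjusted p = 6.48e-05) and 0.33 ± 0.08 at 6 h (adjusted p = 0.00303). The value at 6 h was lower than at 2 h by a tested difference of -0.28 ± 0.07 (adjusted p = 0.00947).

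Icosl (chromosome 10, 78069302 to 78083913, plus strand), which encodes the only known ligand of ICOS, moved the other way. It measured 10.2, 10.6 and 9.73 CPM untreated, 6.38, 6.20 and 7.13 CPM at 2 h and 4.96, 6.17 and 5.81 CPM at 6 h. The 3 groups did not overlap. The log2 fold change was -0.64 ± 0.09 at 2 h (adjusted p = 1.57e-04) and -0.84 ± 0.09 at 6 h (adjusted p = 1.24e-05), and the step from 2 h to 6 h (-0.20 ± 0.09) did not pass (adjusted p = 0.0922). B cells also express Icosl. The summed level of 7 B cell markers was 68.0 to 73.3 CPM untreated, 53.3 to 61.4 CPM at 2 h and 42.1 to 44.5 CPM at 6 h, carried by Cd22 and Ighm. The other 5, among them Ms4a1 and Pax5, were below 1 CPM in every library. The summed level of 6 plasmacytoid dendritic cell markers, mostly Bst2, was 299.9 to 334.8, 276.9 to 349.5 and 183.3 to 209.4 CPM, with Siglech below 1 CPM. The part of either marker list in the result was not tested.

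**Figure D3:**
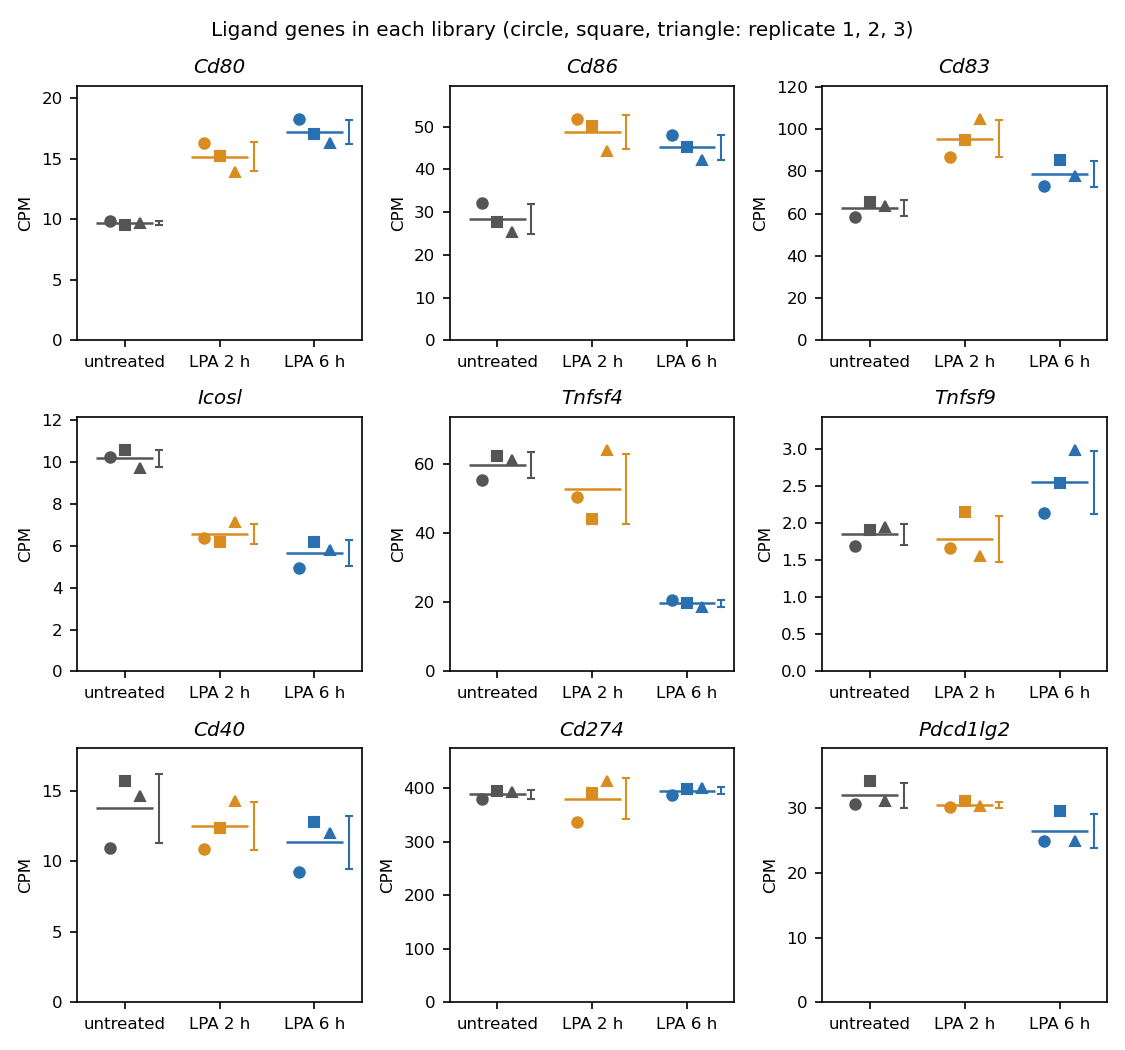
CPM (y axis, from 0) of each ligand gene in the 9 libraries by group. Circles, squares and triangles are replicates 1, 2 and 3, horizontal lines are group means and the bars beside them are SD. Cd80 and Cd86 are above all untreated libraries at both times, Icosl is below them, and Tnfsf4 is low only in the 6 h libraries, at 18.6 to 20.5 CPM.

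Tnfsf4 (chromosome 1, 161395409 to 161418410, plus strand) encodes OX40L. It measured 55.3, 62.3 and 61.0 CPM untreated, 50.4, 44.1 and 63.9 CPM at 2 h and 20.5, 19.8 and 18.6 CPM at 6 h. The 2 h libraries were spread around the untreated ones, and the 6 h libraries were far below both groups. At 2 h the log2 fold change of -0.18 ± 0.12 did not pass (adjusted p = 0.267). Without replicate 3 at 2 h, the highest of its group, it was -0.34 and passed (adjusted p = 0.00299, over a range of 0.00299 to 0.652 across the alternatives). At 6 h it was -1.60 ± 0.12 against untreated (adjusted p = 4.97e-06) and -1.42 ± 0.12 against 2 h (adjusted p = 3.86e-05), and all alternatives kept both calls.

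Tnfsf9 (chromosome 17, 57105325 to 57107757, plus strand), which encodes 4-1BBL, had the fewest reads of the 9, with 65 to 192 counts per library. It measured 1.70, 1.91 and 1.96 CPM untreated, 1.67, 2.15 and 1.57 CPM at 2 h and 2.14, 2.54 and 2.99 CPM at 6 h. The 6 h libraries were above the untreated ones, but the lowest of them lay within the 2 h range. The log2 fold change was -0.03 ± 0.16 at 2 h (adjusted p = 0.904), 0.48 ± 0.16 at 6 h (adjusted p = 0.0252) and 0.51 ± 0.16 between the times (adjusted p = 0.0191). The call at 6 h was lost without untreated replicate 1 (adjusted p = 0.0821), untreated replicate 2 (0.0536), 6 h replicate 2 (0.0556) or 6 h replicate 3 (0.137), over a range of 0.0135 to 0.137. The call between the times was lost without 2 h replicate 1 (adjusted p = 0.0703), 2 h replicate 3 (0.0666) or 6 h replicate 3 (0.111), over a range of 0.00427 to 0.111. A long non-coding gene on the opposite strand, Gm11110, overlaps Tnfsf9 over 618 bases, counted over whole genes with introns. The libraries do not keep the strand, so reads of the overlap cannot be told apart. Gm11110 measured 1.07, 1.13 and 1.03 CPM as means of the 3 groups.

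Other ligands of the TNF superfamily were taken from the fixed list of surface genes, and this subset was drawn by family name after the values were seen. Of 7 tested, 0 were higher and 4 lower at 2 h, and 2 were higher and 4 lower at 6 h. Of all tested genes, 19.3% were called higher and 19.2% lower at 2 h, and 26.4% and 25.7% at 6 h. Tnfsf15, which encodes TL1A, fell from 11.8 ± 1.96 to 5.39 ± 0.456 and then 1.04 ± 0.212 CPM. Tnfsf8, which encodes CD30 ligand, was 9.70 ± 0.309 untreated, 2.98 ± 0.611 at 2 h and 5.04 ± 0.924 CPM at 6 h. Tnfsf10, which encodes TRAIL, was 3.38 ± 0.413, 1.47 ± 0.455 and 0.407 ± 0.107 CPM. The 4th gene to fall was Tnfsf18, which encodes GITR ligand, and the 2 that rose at 6 h were Tnfsf14 (log2 fold change 1.66 ± 0.33) and Tnfsf13b (0.64 ± 0.17). Tnfsf18 and Tnfsf14 had few reads. Per library, Tnfsf18 had 23 to 41 counts untreated and 0 to 4 at 6 h, and Tnfsf14 had 8 to 18 and 24 to 57. Tnfsf15, Tnfsf8, Tnfsf10 and Tnfsf18 had passed the test by 2 h and Tnfsf4 had not, and whether their 2 h changes differ from that of Tnfsf4 was not tested.

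Cd40 (chromosome 2, 165055627 to 165072948, plus strand) measured 10.96, 15.7 and 14.6 CPM untreated, 10.9, 12.4 and 14.3 CPM at 2 h and 9.23, 12.8 and 12.1 CPM at 6 h. The groups overlapped, and replicate 1 was the lowest in each. The log2 fold change was -0.14 ± 0.16 at 2 h (95% interval -0.50 to 0.21, adjusted p = 0.52) and -0.27 ± 0.16 at 6 h (95% interval -0.63 to 0.09, adjusted p = 0.192). With replicate numbers fitted as a block, its 6 h value was -0.28 ± 0.08 and passed (adjusted p = 0.0102), which made 8 of 9 genes called at 6 h. The block fit also called more of all genes at 6 h than the main fit, which called 7472 of 14363 (52%). Cd40 also passed without untreated replicate 1, at -0.41 (adjusted p = 0.0373), over a range of 0.0102 to 0.473 across the alternatives.

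Cd274 (chromosome 19, 29367455 to 29388095, plus strand), the gene for PD-L1, had 11814 to 33138 counts per library. It measured 379, 395 and 392 CPM untreated, 337, 391 and 413 CPM at 2 h and 388, 399 and 400 CPM at 6 h. The groups overlapped, and the widest spread was among the 2 h libraries. The log2 fold change was -0.03 ± 0.06 at 2 h (95% interval -0.17 to 0.11, adjusted p = 0.734) and 0.02 ± 0.06 at 6 h (95% interval -0.11 to 0.16, adjusted p = 0.766).

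Pdcd1lg2, the gene for PD-L2, begins 22823 bases beyond the end of Cd274 on the same strand (chromosome 19, 29410919 to 29471161). It measured 30.6, 34.1 and 31.0 CPM untreated, 30.1, 31.0 and 30.3 CPM at 2 h and 24.9, 29.5 and 25.0 CPM at 6 h. The 6 h libraries were below all others, replicate 2 by a small margin. At 2 h the log2 fold change of -0.07 ± 0.07 did not pass (adjusted p = 0.479). At 6 h it was -0.27 ± 0.07 (adjusted p = 0.00628). Against 2 h it was -0.20 ± 0.07 (adjusted p = 0.0298), a call lost under 6 of 17 alternatives: total-count scaling, and leaving out any 1 of the 2 h libraries or replicate 1 or 3 at 6 h (adjusted p from 0.00435 to 0.136 over all). The antisense gene A930007I19Rik overlaps Pdcd1lg2 over 6412 bases, counted over whole genes with introns. It measured 7.93 CPM untreated and 6.13 CPM at 6 h. Whether exons of both genes overlap was not examined, so shared reads are possible but not shown. An antisense gene also overlaps Cd274 over 11055 bases, counted the same way, and was not analysed here.

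The inhibitory ligand gene Cd274 was set within each library against 2 of the co-stimulatory genes, Cd80 and Cd86, which both rose. Ratios to the other co-stimulatory ligand genes were not taken, and these moved in both directions. From untreated to 6 h, mean levels per kb fell for Icosl (3.62 to 2.01) and Tnfsf4 (32.3 to 10.7). For Tnfsf9 the mean rose (1.44 to 1.98). Cd274 over Cd80, per length, was 18.1, 19.5 and 19.0 untreated, 9.70, 12.1 and 13.9 at 2 h and 9.98, 11 and 11.5 at 6 h. Cd274 over Cd86 was 11.9, 14.4 and 15.6 untreated, 6.58, 7.90 and 9.41 at 2 h and 8.15, 8.90 and 9.56 at 6 h. In both ratios every treated library was below every untreated one, and the 2 treated groups overlapped. The ratios restate the values of the single genes and were not tested. Cd274 over Pdcd1lg2 was 5.27 to 5.75 untreated, 5.09 to 6.21 at 2 h and 6.15 to 7.29 at 6 h.

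**Figure D4:**
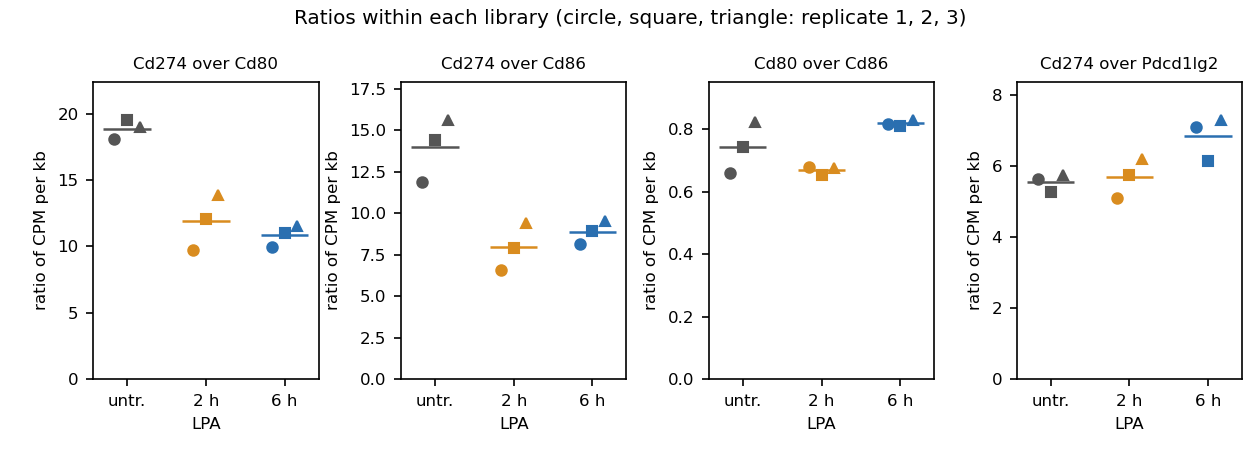
Ratios of per-length levels (CPM per kb) within each library, untreated and after 2 h and 6 h of LPA. Symbols are replicates 1, 2 and 3 and lines are group means. Cd274 over Cd80 is at least 18.1 in untreated libraries and at most 13.9 in treated ones, while Cd80 over Cd86 in untreated libraries overlaps the range of each treated group.

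Promoter windows were available in the RefSeq table (GRCm38.p6) for 4 of the 9 genes: Cd80 and Icosl, which were called in opposite directions, and the neighbours Cd274 and Pdcd1lg2. Each window ran from 250 bases before to 50 bases after the RefSeq start, and both strands were searched for a κB-like motif (GGG and CC with any 5 bases between), the ISRE (GAAA and GAAA with any 2 bases between), GAS (TTCNNNGAA), AP-1 (TGANTCA), CRE (TGACGTCA) and the CRE core (TGACG, which lies within the CRE). The bases ahead of the RefSeq start and ahead of any annotated exon are printed 5′ to 3′, with matches in capitals, for Cd80 (chr16:38458683-38458932), Icosl (chr10:78069118-78069301), Cd274 (chr19:29367188-29367437) and Pdcd1lg2 (chr19:29410669-29410918), all on the plus strand.
Cd80: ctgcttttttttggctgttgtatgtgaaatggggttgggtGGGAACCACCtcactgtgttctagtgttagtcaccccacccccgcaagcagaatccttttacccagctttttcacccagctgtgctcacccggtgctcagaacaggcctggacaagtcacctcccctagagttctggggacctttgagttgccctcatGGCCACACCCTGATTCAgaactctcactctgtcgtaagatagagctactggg
Icosl: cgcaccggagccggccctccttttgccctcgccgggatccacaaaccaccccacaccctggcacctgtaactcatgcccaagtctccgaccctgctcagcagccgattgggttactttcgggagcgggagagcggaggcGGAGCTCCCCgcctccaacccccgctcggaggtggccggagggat
Cd274: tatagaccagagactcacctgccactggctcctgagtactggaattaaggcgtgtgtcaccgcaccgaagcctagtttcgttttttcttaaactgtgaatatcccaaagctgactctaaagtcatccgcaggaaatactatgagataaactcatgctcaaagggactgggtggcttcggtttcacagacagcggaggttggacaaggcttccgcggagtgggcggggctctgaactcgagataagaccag
Pdcd1lg2: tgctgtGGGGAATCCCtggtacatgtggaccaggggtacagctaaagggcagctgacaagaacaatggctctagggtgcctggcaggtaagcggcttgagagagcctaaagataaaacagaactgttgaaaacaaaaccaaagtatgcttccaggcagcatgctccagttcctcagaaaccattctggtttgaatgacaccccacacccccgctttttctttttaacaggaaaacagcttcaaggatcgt

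The Cd80 window held 2 κB-like matches, GGGAACCACC and, on the other strand, GGCCACACCC, and the AP-1 match TGATTCA directly beside the latter. The Icosl window held 2 κB-like matches, of which GGGATGGGCC runs into the annotated first exon and is not capitalised, and the Pdcd1lg2 window held 1, GGGGAATCCC. None of the 6 motifs was found in the Cd274 window. Such letters are common: of 27025 promoters of the same length, 50.4% held the κB-like motif, 7.93% the AP-1 motif, 8.47% GAS, 3.49% ISRE, 1.88% CRE and 21% the CRE core. The Cd80 window begins inside the gene as GENCODE draws it, because the RefSeq start lies 3372 bases downstream of the GENCODE start. A match is a description of the sequence, and no binding was measured.

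The genes whose log2 CPM followed each ligand gene most closely over the 9 libraries were sought among 9695 genes with a mean of at least 5 CPM. For Cd80 they were Fos (Pearson r = 0.996), Ttc39b (0.994) and Tmub2 (0.992), and 253 genes exceeded r = 0.95. For Tnfsf4 they were Gclm (0.999), Nampt (0.998) and Skap2 (0.997), with 578 genes above 0.95. Gclm (log2 fold change -0.16 at 2 h and -1.61 at 6 h) and Nampt (-0.13 and -1.53) shared the late fall in size as well as shape. The closest gene was Trub2 for Cd86 (0.989), Flrt3 for Cd83 (0.986), Tmem106a for Icosl (0.993), Pelo for Tnfsf9 (0.976) and Bub3 for Pdcd1lg2 (0.977). For Cd40 it was Mak16 (0.953), and for Cd274, with 0 genes above 0.95, Impa1 (0.901). The 9 points form 3 groups of replicates and come from shared libraries, so these values describe likeness of pattern and carry no p-value.

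Among the ligand genes themselves, over the same 9 libraries, Cd80 ran with Cd86 (r = 0.923) and opposite to Icosl (r = -0.983). Tnfsf4 ran with Pdcd1lg2 (0.818) and opposite to Tnfsf9 (-0.841). Cd274 had no correlation beyond 0.468, its value with Cd40.

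The CD40 and NF-κB signalling list, through which CD40 and other inducers reach several of these genes, had 24 tested genes. At 2 h, 9 were higher and 2 lower (median log2 fold change 0.08), and at 6 h 3 were higher and 11 lower (median -0.16). Over all tested genes the shares called higher and lower were 19.3% and 19.2% at 2 h and 26.4% and 25.7% at 6 h, above the list's share for lower calls at 2 h and for higher calls at 6 h. Traf3, an adaptor that binds the CD40 tail, rose from 88.4 ± 5.81 to 144 ± 9.88 CPM at 2 h and was 111 ± 8.19 CPM at 6 h. The subunit gene Rel rose by 0.57 ± 0.07 (log2) at 2 h, and its 6 h value of 0.12 ± 0.07 did not pass (adjusted p = 0.137). Against untreated, Nfkb1 was higher by 0.54 ± 0.07 at 2 h and lower by 0.20 ± 0.07 at 6 h. Nfkb2, not called at 2 h (-0.10 ± 0.06), was lower at 6 h (-0.42 ± 0.06). The inhibitor gene Nfkbie (-0.76 ± 0.07) and Birc3 (-0.58 ± 0.06), whose product regulates CD40 signalling, fell at 6 h, and Ikbkb, a kinase that frees NF-κB, rose by 0.20 ± 0.04.

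Of 20 tested genes of dendritic cell maturation and migration, 3 were higher and 8 lower at 2 h, and 4 were higher and 14 lower at 6 h (median -0.05 and -0.32). The higher calls were thus not more frequent than the 19.3% and 26.4% of all tested genes, beside which 19.2% and 25.7% were called lower. The chemokine gene Ccl22 was 624 ± 49.9 CPM untreated, 596 ± 22.3 at 2 h and 391 ± 19.9 at 6 h, and Ccl17 was 34.5 ± 1.00, 33.6 ± 2.99 and 20.5 ± 0.851 CPM. Both fell at 6 h, with log2 fold changes of -0.67 ± 0.06 and -0.75 ± 0.07. Il15ra, which presents interleukin 15 to lymphocytes, fell at 2 h (-0.50 ± 0.07), while the adaptor gene Samsn1 rose (0.50 ± 0.07). As means of untreated, 2 h and 6 h libraries, Il15ra was at 14.3, 10.1 and 9.78 CPM and Samsn1 at 78.5, 111 and 74.8 CPM. The abundant membrane protein gene Tmem123 was 593 ± 15.7 CPM untreated and fell at 6 h (-0.13 ± 0.05). The 4 that rose at 6 h were Ccr7, Ccl5, Il12b and Stat4, named after their values were seen. Ccr7, the receptor that guides dendritic cells to lymph nodes, was 338 ± 29.5 CPM untreated, 449 ± 18.9 at 2 h and 451 ± 39.0 at 6 h.

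**Figure D5:**
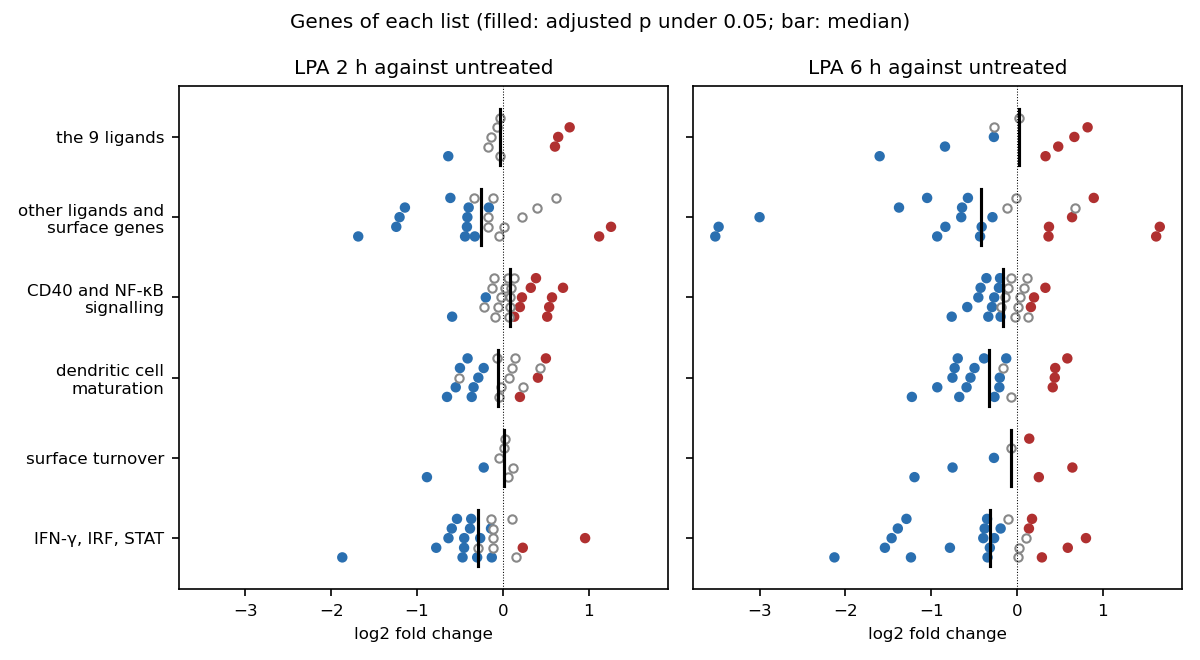
Log2 fold change against untreated (x axis) of each tested gene at 2 h (left) and 6 h (right), by list. Filled points passed the test (red higher, blue lower), open points did not, and black bars are medians. The bar of the NF-κB list lies at 0.08 at 2 h and at -0.16 at 6 h, and that of the 9 ligand genes near 0 at both times.

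Proteins that set how long B7 ligands stay at the surface were given by 7 tested genes. At 2 h 0 were higher and 2 lower, and at 6 h 3 were higher and 3 lower, where 52% of all tested genes were called (26.4% higher and 25.7% lower), and at 2 h 38.5% (19.3% and 19.2%). The median log2 fold change was 0.02 at 2 h and -0.07 at 6 h. March1, a membrane ubiquitin ligase that removes CD86 and MHC class II from the surface, fell from 132 ± 9.10 to 71.5 ± 10.8 CPM at 2 h and 57.6 ± 3.00 CPM at 6 h. Its log2 fold changes were -0.88 ± 0.10 and -1.20 ± 0.10. Cmtm6, which protects PD-L1 from degradation, was 178 ± 1.73, 181 ± 12.1 and 147 ± 1.47 CPM and was called only at 6 h (-0.27 ± 0.05). The shedding protease gene Adam17 fell at both times (-0.22 ± 0.07 and -0.75 ± 0.07), and Adam10 passed at neither (-0.04 ± 0.05 and -0.07 ± 0.05). The 3 called higher at 6 h were Cmtm4, March8 and Lrba, named after their values were seen. As means of untreated and 6 h libraries, Cmtm4 was at 23.9 and 37.4 CPM, March8 at 85.6 and 94.4 CPM and Lrba at 29.7 and 35.5 CPM. Surface protein was not measured.

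Of 23 genes of interferon gamma, IRF and STAT signalling, known inducers of Cd274 among them, 2 were higher and 14 lower at 2 h, and 5 were higher and 14 lower at 6 h (median -0.29 and -0.32). Called higher were 19.3% of all tested genes at 2 h and 26.4% at 6 h, and called lower 19.2% and 25.7%. The kinase gene Jak1 was lower at 6 h (-0.19 ± 0.05). Ifngr1, a chain of the interferon gamma receptor, rose at both times (0.96 ± 0.07 and 0.59 ± 0.07). Irf8, a transcription factor of dendritic cells, fell at 2 h (-0.30 ± 0.07) and was 0.11 ± 0.07 at 6 h without passing. The MHC regulators Ciita and Nlrc5 were lower at 6 h, with log2 fold changes of -2.13 ± 0.07 and -1.54 ± 0.07. Their means in untreated, 2 h and 6 h libraries were 80.6, 22.1 and 18.4 CPM for Ciita and 95.1, 65.8 and 32.7 CPM for Nlrc5.

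Among 22 tested genes for other ligands and surface proteins facing lymphocytes, 2 were higher and 11 lower at 2 h, and 6 were higher and 13 lower at 6 h (median -0.25 and -0.42). The 6 higher calls are near the background of 26.4% at 6 h, and the other backgrounds were 19.3% higher and 19.2% lower at 2 h and 25.7% lower at 6 h. The 2 that rose at 2 h were Pvr, the ligand shared by TIGIT and CD226, and Havcr2, which encodes TIM-3. Pvr was 24.9 ± 1.76 CPM untreated, 59.7 ± 7.53 at 2 h and 32.0 ± 0.702 at 6 h. Havcr2 was 14.7 ± 0.285, 31.9 ± 2.42 and 45.2 ± 1.75 CPM. The inhibitory receptor gene Lilrb4a, the most abundant of the list, was lower at 6 h (-0.64 ± 0.06), and Pirb was lower at both times (-0.16 ± 0.05 and -0.29 ± 0.05).

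Lymphocyte receptors of the 9 ligands or of other ligands, together with Cd40lg, made a list of 12 genes. Of these 9 were tested, with 0 higher and 2 lower at 2 h and 1 higher and 6 lower at 6 h (median -0.04 and -0.43). The 2 lower calls at 2 h are near the 19.2% of all tested genes called lower there (19.3% higher), and at 6 h 26.4% were called higher and 25.7% lower. Of the 12 genes, 7 were below 1 CPM in every library. Tnfrsf9, which encodes 4-1BB, the receptor of the Tnfsf9 product, was the exception in level, at 108 ± 11.7 CPM untreated, 129 ± 16.9 at 2 h and 102 ± 9.57 at 6 h, and passed against untreated at neither time. Cd28 was 23.6 ± 1.89, 22.9 ± 2.55 and 29.9 ± 0.841 CPM and rose at 6 h (0.34 ± 0.08). Tnfrsf4, which encodes OX40, the receptor of the Tnfsf4 product, was 3.36 ± 0.312 CPM untreated and lower at both times (-0.62 ± 0.13 and -0.43 ± 0.13). Among receptors of ligands other than the 9, Btla fell at 6 h (-1.68 ± 0.20) and Cd27, at 0.491 ± 0.0680 CPM untreated, fell at 2 h (-1.53 ± 0.29).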

How the data were processed

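RNA-seq was done on 9 samples with a protocol that keeps no strand, per the labels' protocols. The deposited table holds the authors' estimated counts for each gene, as whole numbers and without depth scaling. RSEM 1.2.3, DESeq2 and mm10 are the tools and build in the submitters' processing notes. RSEM assigns reads shared by transcripts by estimation. The aligner is not given in the sources used here, nor is the annotation release. Transcript identifiers were matched to GENCODE M21 (GRCm38, the assembly of mm10), and 37776 rows with 98.46% of counts matched 1 gene.

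Low genes were removed by filterByExpr (count 10, total 15), libraries were scaled with TMM, and all 9 entered 1 robust quasi-likelihood fit with a mean per group (edgeR 4.0.16, R 4.3.3). Adjusted p-values follow Benjamini-Hochberg over 14363 tested genes, a call means a value under 0.05, and all come from this test unless another is named. The SE was obtained as the size of the log2 fold change over the root of F. CPM used TMM-scaled totals, and log2 CPM a prior count of 2. No library repeated another: chi-square per degree of freedom was 7.44 to 33.4 over replicate pairs. Deviations of libraries sharing a replicate number correlated weakly. The r was 0.144 to 0.178 between 6 h and untreated, 0.09 to 0.184 between 2 h and untreated, and 0.035 to 0.128 between the times. No label states a pairing, so the main fit did not pair libraries, and the replicate block served as an alternative. On simulated counts the test recovered 63.3% of 1.5-fold changes at 2 h and 67.1% at 6 h. Of its calls there, 7.14% at 2 h and 3.64% at 6 h fell on unchanged genes. Far fewer genes were changed in the simulation than were called in the data.

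The ligand genes, gene lists and marker lists were chosen with earlier results of these data known. Per list, the text names the 2 genes with the smallest p and the 2 with the highest level in each comparison with untreated, plus a few family members and genes marked as chosen later. A gene that this rule names is not reported here. Alternatives were DESeq2 size factors, total-count scaling, no filter, a mean of at least 10 counts, DESeq2 1.42.0, limma-voom (limma 3.58.1), a replicate block, a fit to the 6 libraries of a comparison, and each library left out.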

Additional observations from a re-analysis of the deposited data

Results flagged for a closer look

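For 4 ligand genes the change from untreated cells differed between the time points by a test of the difference itself, 6 h against 2 h (edgeR, adjusted over all tested genes). The log2 difference was -1.42 ± 0.12 (SE) for Tnfsf4 (adjusted p = 3.86e-05), lower in 3 of 3 libraries at 6 h than in any at 2 h. It was -0.28 ± 0.07 for Cd83 (adjusted p = 0.00947), also with no overlap. It was 0.51 ± 0.16 for Tnfsf9 (adjusted p = 0.0191), with overlapping libraries, and -0.20 ± 0.07 for Pdcd1lg2 (adjusted p = 0.0298), with no overlap. The threshold was passed by 48.7% of all tested genes in the same comparison.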

How the results depend on the processing

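Of 27 results on single ligand genes (9 genes in 3 comparisons), 18 kept their direction and their side of the threshold under all 17 alternatives, among them each call at 2 h and, at 6 h, each call other than Tnfsf9. Leaving out 1 library in turn gave 4 to 5 ligand genes called at 2 h, 6 to 7 at 6 h and 2 to 4 between the times, and 4352 to 5580, 6226 to 7896 and 5767 to 7425 genes called in all. The count of 2 between the times arose without 2 h replicate 3 and without 6 h replicate 3. Values that passed under no alternative changed sign for Tnfsf9 at 2 h (0.0061, 0.0217 and 0.0528 without untreated replicate 3, 2 h replicate 1 and 2 h replicate 3, in a range of -0.1936 to 0.0528) and, without 2 h replicate 1, for Cd274 at 2 h (0.0485, range -0.0946 to 0.0485) and between the times (-0.0268, range -0.0268 to 0.1174). The cause was not tested. With the replicate number as a block, Cd40 at 6 h (-0.2756, adjusted p = 0.0102) and Cd80 between the times (0.1809, adjusted p = 0.0235) were called in addition. Over all genes the block gave 6135 calls for 2 h, 8036 for 6 h and 7588 for the difference of the times, and changed no other call on a ligand gene. Each ligand gene had 1 row, so summing rows could give no other value. Depth limits Tnfsf9 most, with 65 to 192 counts per library.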

Other observations

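Further surface genes that face T cells, named after their values were seen, moved at different times. Icam1, the adhesion ligand of LFA-1, was 187 CPM untreated, 123 CPM at 2 h and 72.2 CPM at 6 h as group means, with log2 fold changes of -0.61 and -1.38 that both passed. Vsir, which encodes the inhibitory B7-family protein VISTA, was 228 ± 12.6 CPM untreated, lower at 2 h (181 ± 29.0) and higher at 6 h (294 ± 21.2), and both changes passed (adjusted p = 0.0315 and 0.0129). Cd276, which encodes B7-H3, was 11.5 ± 1.74, 13.4 ± 2.64 and 21.5 ± 0.871 CPM and was called at 6 h (0.89 ± 0.14) but not at 2 h (0.22 ± 0.14). Lgals9, which encodes galectin-9, a ligand of TIM-3, was 152 CPM untreated, 140 CPM at 2 h and 73.3 CPM at 6 h, and was called at 6 h (-1.05).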
